A study of Homo sapiens with 15 samples.

Results

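The probes for 10 WNT ligands were examined here in HCT116 cells: WNT2B, WNT3, WNT4, WNT5A, WNT6, WNT7B, WNT10A, WNT10B, WNT11 and WNT16. They were taken by symbol, as 10 of the 13 WNT genes among the 730 endogenous genes of the NanoString nCounter PanCancer Pathways Panel, which holds 770 genes with its 40 housekeeping genes. HCT116 is an established human colorectal cancer line. One group was left untreated (control), one received 40 µM of TQ (thymoquinone, a plant-derived quinone) and one received 15 µM of 5-FU (5-fluorouracil, which blocks thymidylate synthesis). Combi cells received 35 µM of TQ together with 35 µM of 5-FU, and SARB cells received 35 µM of a hybrid molecule in which 5-FU and TQ are linked. Treatment lasted 24 h, and each of the 5 groups had 3 samples that the labels call biological replicates of this 1 line. The question for the ligands was which of them these cells transcribe above the background of the assay and which of them moved under each treatment. These are bulk samples, in which fewer cells expressing a ligand and less RNA per cell cannot be told apart.

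WNT ligands are secreted, lipid-modified proteins that bind Frizzled receptors at the cell surface. In the canonical branch, binding with the co-receptors LRP5 or LRP6 stops the destruction of β-Catenin, which then activates genes together with TCF/LEF factors in the nucleus. In the non-canonical branches, ligands such as WNT5A and WNT11 act through calcium release or through small GTPases that set cell polarity. Canonical WNT signaling maintains the stem cells of the intestinal crypt, and HCT116 cells carry a β-Catenin that escapes destruction, so part of the pathway's activity in them does not need a ligand.

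Promoter sequence is shown for the ligand with the largest change from control among those given a fold change (WNT16) and for the 1 that was called higher in Combi and lower in SARB than in Combi (WNT3), so that their starts can be compared. The sequences come from RefSeq on GRCh38.p14, whose promoter table matched 7 of the 10 ligands with 9 entries. WNT7B, WNT10B and WNT11 had no match. Each run gives the 250 bases before an annotated transcript start, 5′ to 3′ on the strand of the gene, with CCAAT boxes in capitals. The WNT16 window is chr7:121328750-121328999 on the plus strand, and the WNT3 window is chr17:46818693-46818942 on the minus strand. The WNT16 window lies within the annotated gene (chr7:121325367-121341104), so it precedes an internal transcript start.
WNT16: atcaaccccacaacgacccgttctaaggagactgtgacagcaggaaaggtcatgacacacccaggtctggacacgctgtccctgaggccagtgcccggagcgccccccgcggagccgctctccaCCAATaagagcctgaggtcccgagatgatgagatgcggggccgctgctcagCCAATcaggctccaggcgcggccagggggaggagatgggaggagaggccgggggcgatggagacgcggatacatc
WNT3: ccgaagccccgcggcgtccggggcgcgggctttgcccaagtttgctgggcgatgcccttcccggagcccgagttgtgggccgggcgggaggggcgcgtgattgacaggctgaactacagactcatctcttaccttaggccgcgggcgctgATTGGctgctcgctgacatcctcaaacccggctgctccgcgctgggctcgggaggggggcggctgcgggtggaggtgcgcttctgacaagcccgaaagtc
The search covered CCAAT on both strands, so that a box on the opposite strand reads ATTGG. WNT16 held 2 boxes, whose first bases lay 126 and 75 bases before the start, and WNT3 held 1, on the opposite strand, 100 bases before the start. Of 35116 promoters of the table, 32.0% held a CCAAT box in the same window. The core CTTTG bound by TCF/LEF factors, which overlaps neither box, stood once in the WNT3 window and had no match in the WNT16 window, and 42.1% of all promoters held it. The GC box GGGCGG, found in 42.6% of all promoters, stood 2 times in the WNT3 window and had no match in the WNT16 window. The match is of letters only, and no binding was measured here.

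Each nCounter value is a number of color barcodes counted without amplification. Total counts of the endogenous genes ranged from 135017 to 607782 per sample, so counts were scaled by the geometric mean of the housekeeping genes of each sample, and such values are called scaled counts. A gene is named as called, or as having risen or fallen, where its adjusted p was at most 0.05 and its change at least 1.5-fold. Background was judged on the raw counts. A ligand was above background in a sample where its raw count exceeded the mean plus 2 SD of the 8 negative control probes of that sample, a threshold of 6.23 to 26.4 counts. On the scaled axis this threshold was 21.6 to 41.9 in control and 5.90 to 15.25 in TQ, without overlap, and 5.43 to 32.9 in SARB, 13.8 to 23.4 in 5-FU and 12.8 to 29.8 in Combi. The cartridge of each sample was inferred from identifiers in the raw file names of the labels, and no other source names it. Of 3 such cartridges, the first took all TQ, 5-FU and SARB samples with control replicate 1. The other control replicates shared the second with Combi replicate 1, and the third took only the other Combi samples. All 9 epithelial marker genes on the panel were above background in all samples of every group. Of 6 fibroblast markers, 4 to 5 were at background in all samples of each group, and the summed fibroblast markers ranged from 39.5 to 122.7 scaled counts, highest in control.

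WNT16, WNT10B and WNT6 were above background in all 15 samples, and WNT5A was below it in all 15. In control, 5 of the 10 ligands were above background in all 3 samples (WNT2B, WNT6, WNT10A, WNT10B and WNT16), where 57.9% of the 730 endogenous genes were. In TQ 6 ligands met this limit, in 5-FU 8, in Combi 7 and in SARB 5, where 67.1%, 66.2%, 68.6% and 63.4% of all endogenous genes did. WNT7B and WNT3 met it in each of the 4 treated groups but not in control. The raw threshold was lower in TQ (6.23 to 9.57) than in control (12.5 to 26.4). The scaled WNT7B counts of TQ lay within the control range. WNT11 met it in 5-FU alone among the groups, and WNT4 exceeded background in 2 Combi samples and in no sample of the other groups. A count below the threshold does not show that a transcript was absent, and a fold change is given for a ligand only where all 3 samples of at least 1 of the compared groups were above background.

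**Figure D1:**
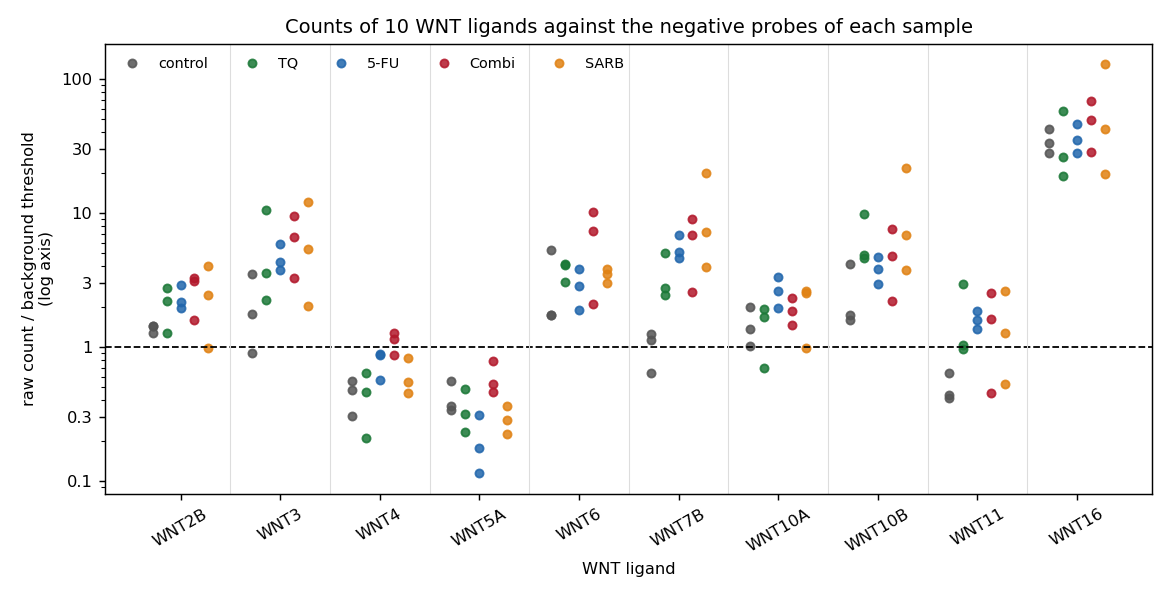
Raw count of each WNT ligand divided by the background threshold of the same sample (log axis), with 1 point per sample and 3 samples per group. The dashed line marks the threshold, and WNT16 stood 18.8 to 128 times above it, whereas all 15 WNT5A points lay under it.

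WNT16, a ligand first described in lymphoid leukemia cells, fell under TQ, 5-FU and SARB. Its raw counts were 530, 746 and 831 in control, and 117, 551 and 223 in TQ. Scaled to the housekeeping genes, they were 917, 1128 and 1397 in control and 286, 340 and 380 in TQ. Every TQ sample thus lay far below every control sample. The scaled counts were 640, 655 and 782 in 5-FU, 542, 639 and 694 in SARB, and 852, 869 and 759 in Combi. All treated samples lay below the lowest control sample, and the groups followed the order control, Combi, 5-FU, SARB and TQ, where 5-FU overlapped with both of its neighbors, Combi and SARB. The log2 fold change against control was -1.77 (SE 0.15, edgeR adjusted p = 2.94e-08) in TQ, and it stayed called under all 15 alternatives, between -1.90 and -1.25. In 5-FU it was -0.73 (SE 0.15, adjusted p = 0.000641) and in SARB -0.87 (SE 0.15, adjusted p = 7.82e-05). In Combi it was -0.47 (SE 0.14, adjusted p = 0.0159), short of the 1.5-fold limit but called without control replicate 1 (-0.61). After TMM, a scaling that centers the bulk of all genes, the log2 fold change was -1.29 in TQ, but -0.53 in 5-FU (adjusted p = 0.0197) and -0.50 in SARB (adjusted p = 0.0213), both short of the 1.5-fold limit. With DESeq2 they were likewise short, at -0.52 and -0.49. On the first cartridge alone, which has 1 control sample, the log2 ratio of means was -1.45 for TQ, -0.40 for 5-FU and -0.55 for SARB. With cartridge as a block the 5-FU and SARB calls were lost, at -0.41 (adjusted p = 0.156) and -0.55 (adjusted p = 0.0376). The 5-FU call was also lost without control replicate 3, at -0.56.

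WNT7B, a ligand made by many epithelia, rose under 5-FU, Combi and SARB. Its raw counts in control were 14, 33 and 16 against thresholds of 12.5, 26.4 and 24.9, so that control replicate 3 was below background and the others were just above it. In scaled counts these samples stood at 24.2, 49.9 and 26.9. The 5-FU samples had 94.0, 119.7 and 102.9 scaled counts. The SARB samples had 93.5, 130.8 and 107.3, and the Combi samples had 77.2, 114.9 and 105.4. Each sample of these 3 groups lay above each control sample. In TQ the scaled counts were 41.6, 29.6 and 35.8, within the range of control. The log2 fold change was 1.63 in 5-FU (SE 0.26, edgeR adjusted p = 5.09e-05), 1.55 in Combi (SE 0.25, adjusted p = 5.16e-05) and 1.68 in SARB (SE 0.25, adjusted p = 2.55e-05). The 5-FU and SARB calls held under all 15 alternatives, with ranges of 1.43 to 2.44 and 1.49 to 2.50. With cartridge as a block, at 2.12 and 2.17, they rest on control replicate 1 alone, with its 14 counts. The Combi call was lost only with cartridge as a block, at 0.99 (adjusted p = 0.0526), where Combi replicate 1 alone stands against control replicates 2 and 3. In TQ the log2 fold change was 0.00 (SE 0.28, adjusted p = 0.996), with a 95% interval of -0.59 to 0.59. After TMM it was 0.48 in TQ. The 3 groups with the rise are those whose cells received 5-FU or the hybrid, each at its own dose.

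**Figure D2:**
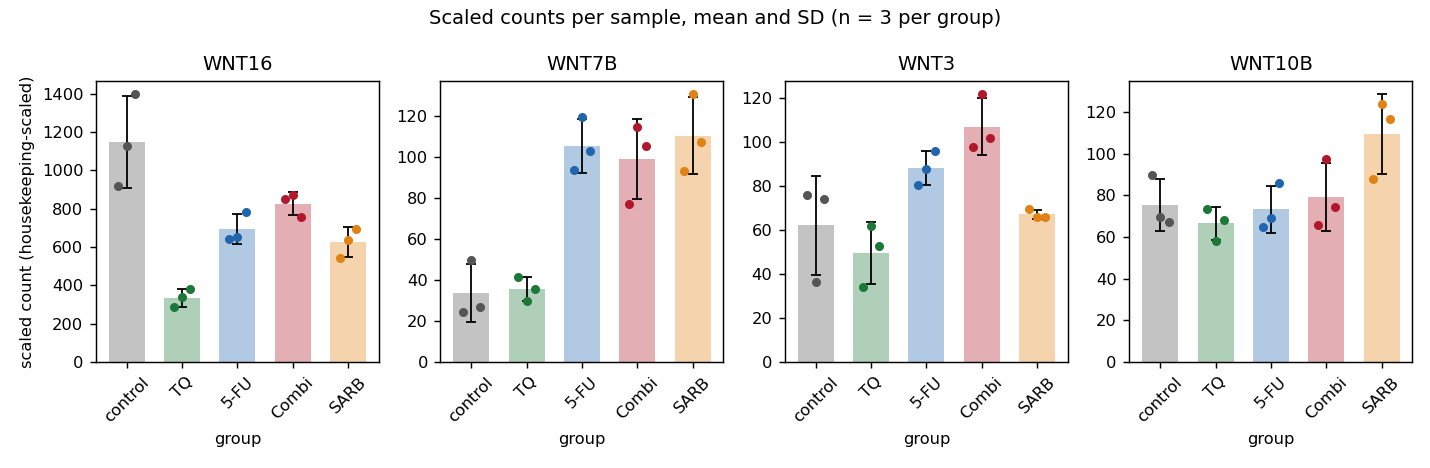
Housekeeping-scaled counts of WNT16, WNT7B, WNT3 and WNT10B by group, with 1 point per sample, bars for the mean and whiskers for the SD (n = 3). WNT16 was lowest in TQ (286 to 380), and WNT7B was higher in 5-FU, Combi and SARB (77.2 to 130.8) than in control (24.2 to 49.9).

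WNT3, a canonical ligand that Paneth cells supply to intestinal stem cells, rose under Combi. Its scaled counts were 76.1, 36.3 and 73.9 in control, where replicate 2 was below background, and 97.7, 121.7 and 101.8 in Combi. All Combi samples lay above all control samples. This gave a log2 fold change of 0.80 (SE 0.23, edgeR adjusted p = 0.0112), which fell short without control replicate 2 (0.52, adjusted p = 0.0933), without Combi replicate 2 (0.70, adjusted p = 0.0661) and with cartridge as a block (0.84, adjusted p = 0.109). In 5-FU the samples had 80.6, 87.8 and 95.9 scaled counts, each above control, and the log2 fold change of 0.51 (adjusted p = 0.120) did not pass the test, though it was called after TMM (0.71, adjusted p = 0.0448). The SARB samples had 69.4, 66.1 and 65.9 scaled counts, inside the range of control, with a log2 fold change of 0.12 (adjusted p = 0.680). In TQ they were 34.3, 61.7 and 52.9, and the log2 fold change of -0.23 (adjusted p = 0.478) became 0.27 after TMM.

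WNT10B, a canonical ligand known for holding back fat cell formation, was above background in every sample, at 1.60 to 21.5 times the threshold. Its scaled counts were 89.9, 69.5 and 67.2 in control and 87.7, 124.0 and 116.6 in SARB. SARB replicate 1 lay below control replicate 1, and the other SARB samples lay above all controls. The log2 fold change in SARB was 0.54 (SE 0.21, edgeR adjusted p = 0.0450), short of the 1.5-fold limit, and it was called after TMM at 0.89 (adjusted p = 0.00244) and with DESeq2 at 0.90. In 5-FU its log2 fold change was -0.04 (95% interval -0.50 to 0.41), in Combi 0.09 (-0.34 to 0.52) and in TQ -0.22 (-0.68 to 0.25). The signs in 5-FU and TQ turned after TMM, to 0.14 and 0.25.

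WNT10A and WNT2B, both canonical ligands with low counts, fell under TQ after housekeeping scaling. The raw WNT10A counts were 25, 27 and 34 in control, at 1.02 to 2.00 times the threshold, and 12, 16 and 6 in TQ. In scaled counts control had 43.2, 40.8 and 57.1 and TQ had 29.4, 9.87 and 10.2, without overlap. TQ against control gave -1.68 on the log2 scale (SE 0.44, edgeR adjusted p = 0.00748), and the call was lost with cartridge as a block (-1.57, adjusted p = 0.131) and without TQ replicate 2 (-1.32, adjusted p = 0.0737). WNT2B had 31.1, 57.5 and 53.8 scaled counts in control and 41.6, 12.95 and 18.8 in TQ. TQ replicate 1 lay above control replicate 1, so the groups overlapped. Its log2 fold change was -1.13 (SE 0.39, adjusted p = 0.0302), and 9 of 15 alternatives lost the call, among them TMM at -0.70. The scaled background threshold moved the same way, from 21.6 to 41.9 in control to 5.90 to 15.25 in TQ, and its part in these low values was not tested.

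WNT6, a canonical ligand whose gene neighbors WNT10A in the RefSeq annotation, had 0 of 4 comparisons with control called in the edgeR fit of all samples. At an unadjusted p under 0.05 it was lower in TQ by edgeR, and DESeq2 called 0 of the 4. Other edgeR fits called it lower in TQ, with only the 2 groups compared (-1.06, adjusted p = 0.0353), with the background floor (-1.08, adjusted p = 0.0419) and without TQ replicate 3 (-1.44, adjusted p = 0.0486). In SARB its log2 fold change was -0.73 (edgeR adjusted p = 0.193), and the SARB samples at 49.2, 98.4 and 19.2 scaled counts overlapped control. Without SARB replicate 2 it was called lower in SARB (-1.41, edgeR adjusted p = 0.0107), and without SARB replicate 3 it was -0.24. Its scaled counts in control were 114.1, 69.5 and 72.3, and the TQ samples at 46.5, 24.05 and 61.4 were all lower. In TQ its log2 fold change was -1.07 (SE 0.48, adjusted p = 0.0820). The Combi samples at 62.5, 94.3 and 156.9 spread widely, with Combi replicate 3 above every other sample of the series. WNT11, a non-canonical ligand, was below background in all control samples at 8, 11 and 11 raw counts. The 5-FU samples had 21, 28 and 22 raw counts against thresholds of 11.3, 17.6 and 16.1. All 3 thus lay above background, yet the log2 fold change of 0.92 (SE 0.39, adjusted p = 0.0844) did not pass. It was called after TMM (1.12, adjusted p = 0.0285), with DESeq2 (1.14, adjusted p = 0.0416) and with limma on the normalized values (2.89, adjusted p = 0.0045). With counts below background raised to the threshold of their sample it was -0.13.

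WNT5A and WNT4, which act mainly outside the β-Catenin branch, were at or below background in nearly all samples, and no fold change is given for them. WNT5A had 7, 9 and 9 raw counts in control and 2 to 7 in TQ, 5-FU and SARB, all under the thresholds. The fit called it lower in TQ and SARB, but all these counts were in the range of the negative probes. WNT4 had 6, 8 and 14 raw counts in control and 23, 28 and 33 in Combi. Of the Combi samples, replicate 1 at 23 counts was below its threshold of 26.2 and the other 2 were above theirs.

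Among the 10 ligands, TQ had 4 called lower (WNT2B, WNT5A, WNT10A and WNT16) against a background of 21.6% of the 730 genes called lower. Without the ligands at background this was 3 of the 7 given a fold change. No ligand was called higher in TQ by edgeR, where 3.42% of all genes were. At an unadjusted p under 0.05 the count higher in TQ was also 0, and DESeq2, TMM and limma on the normalized values called 0. In 5-FU, WNT7B was called higher and WNT16 lower, against 10.1% of all genes called higher and 10.1% called lower. In Combi, WNT3 and WNT7B were called higher against 13.6% of all genes. None was called lower, where 6.58% of all genes were, 1 ligand (WNT16) was lower at an unadjusted p under 0.05, and DESeq2 called 0. In SARB, WNT7B was called higher, against 8.63% of all genes, and WNT16 and WNT5A were called lower, against 20% of all genes. Of the 7 ligands given a fold change in SARB, 2 were called. Over the 10 ligands, those at background included, the median log2 fold change was -1.10 in TQ, beside -0.47 for all genes, and -0.04 in 5-FU, beside -0.27. For Combi the medians were 0.20 and -0.10, and for SARB -0.75 and -0.41. These 4 comparisons share the control samples. TMM shifted the median of all genes upward by 0.45 for TQ, by 0.34 for SARB, by 0.19 for 5-FU and by 0.09 for Combi. After TMM the split of ligands called was 0 higher and 2 lower in TQ, 3 higher and 0 lower in 5-FU, and 2 higher and 0 lower in SARB.

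**Figure D3:**
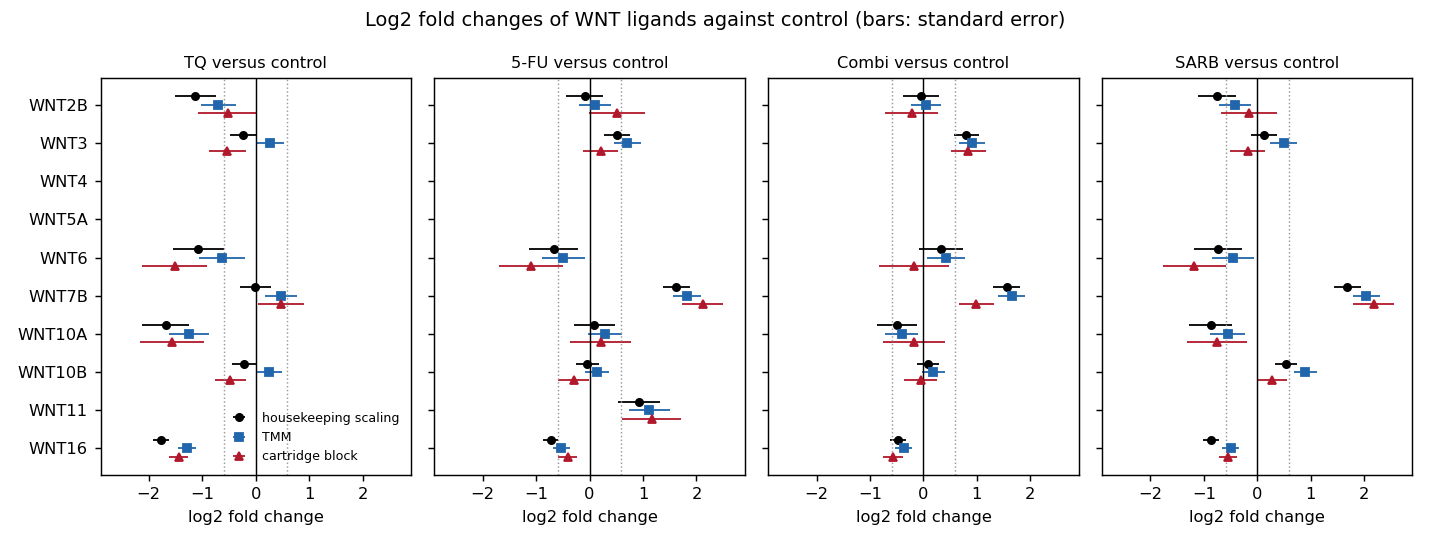
Log2 fold change against control of each ligand given one (points; bars are the standard error) after housekeeping scaling (black), after TMM (blue) and with cartridge as a block (red), with dotted lines at 1.5-fold. WNT16 in TQ (-1.77, -1.29 and -1.44) and WNT7B in 5-FU and SARB lay beyond the dotted lines in all 3 fits, whereas WNT3 and WNT10B in TQ changed sign after TMM.

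SARB and Combi, matched at 35 µM and 24 h, put the linked molecule against the free pair. Of 10 ligands 1 was called, WNT3, which was lower in SARB (log2 fold change -0.68, SE 0.21, edgeR adjusted p = 0.0317), against 12.2% of all genes called in either direction. Its samples did not overlap, with 65.9 to 69.4 scaled counts in SARB and 97.7 to 121.7 in Combi. The call was lost in 9 of 15 alternatives, TMM (-0.41, adjusted p = 0.233) and DESeq2 (-0.34) among them. After TMM and with DESeq2 the only ligand called was WNT10B, higher in SARB at 0.71 and 0.79, where housekeeping scaling gave 0.45 (95% interval 0.05 to 0.84, adjusted p = 0.106). WNT6 had a log2 fold change of -1.05 (edgeR adjusted p = 0.0789). It was called lower with housekeeping genes of at least 100 counts (-1.15), without Combi replicate 1 (-1.31) and without SARB replicate 2 (-1.74). Without Combi replicate 3 (-0.61) and without SARB replicate 3 (-0.57) its difference was smaller and not called. WNT7B did not pass, and its difference of 0.13 had a 95% interval of -0.30 to 0.56. WNT16 had a log2 fold change of -0.40 (95% interval -0.70 to -0.10, adjusted p = 0.0581), with no overlap between 542 to 694 and 759 to 869 scaled counts. No cartridge held both treatments, and with cartridge as a block the WNT16 value was 0.02. Cartridge and treatment therefore could not be told apart in the direct comparison.

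TQ was given at 40 µM, above its 35 µM in Combi, and the hybrid at 35 µM, so the next values differ in dose. Against TQ, SARB had 3 ligands called, all higher, where 19.5% of all genes were called in either direction. They were WNT7B (log2 fold change 1.69, SE 0.25, edgeR adjusted p = 2.22e-05), WNT16 (0.89, SE 0.15, adjusted p = 0.000130) and WNT10B (0.75, SE 0.21, adjusted p = 0.00961). The groups shared the first cartridge, and the WNT7B and WNT16 calls held under all 15 alternatives, whereas WNT10B was lost with DESeq2, with limma and without TQ replicate 2. Combi had 7 ligands called higher than in TQ, where 34.1% of all genes were called in either direction. They were WNT2B, WNT3, WNT4, WNT6, WNT7B, WNT10A and WNT16, with log2 fold changes from 1.04 for WNT3 to 1.56 for WNT7B among those given one. With cartridge as a block 0 of the 7 stayed called by edgeR, and 2 had an unadjusted p under 0.05. The comparison with DESeq2 called 3. No cartridge held both Combi and TQ samples. The median log2 fold change was 1.24 over the 10 ligands, beside 0.56 for all genes, so genes at large were also shifted upward. After TMM 5 ligands were called higher, and the median of all genes was 0.19.

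The raw counts of WNT16 and WNT7B can be set against each other within a sample, which needs no scaling between samples. The ratio of WNT16 to WNT7B was 37.9, 22.6 and 51.9 in the control samples. It was 6.88, 11.5 and 10.6 in TQ, 6.81, 5.47 and 7.61 in 5-FU, 11.0, 7.56 and 7.20 in Combi, and 5.79, 4.89 and 6.47 in SARB. The ratio was chosen after both genes had been seen to move, so it restates their values and has no test. The control ratios are uncertain, since they rest on 14 to 33 counts of WNT7B, with replicate 3 below background.

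The genes whose log2 scaled counts followed a ligand most closely over the 15 samples are given as a description, since samples of 1 group share their treatment and in part their cartridge. For WNT16 they were MAML2, a coactivator of Notch (Pearson r = 0.94), PPP3CA, a catalytic subunit of calcineurin (0.93), BAD, a promoter of apoptosis (0.92), ETV1, an ETS transcription factor (0.91), and TIAM1, an activator of RAC1 (0.91). For WNT6 the closest were HMGA2, a chromatin protein (0.91), and TNN (0.90), which was at background in all samples, followed by CACNA2D3, also at background, PIK3R5 and SPRY2. For WNT10B the values were lower, from 0.81 for FANCA to 0.71 for PIK3CB, with MAP2K1, PDGFC and SMAD4 between them.

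Beside the ligands, 63 further genes of the WNT pathway were read from lists of receptors, secreted antagonists, β-Catenin turnover, nuclear factors, target genes and the calcium and polarity branch. TQ had 2 of these called higher and 16 lower. 5-FU had 5 higher and 8 lower, Combi had 6 and 4, and SARB had 6 and 19. The share called lower was 25.4% in TQ and 30.2% in SARB, beside 21.6% and 20% of all genes. In 5-FU 12.7% were called lower and 7.9% higher, beside 10.1% of all genes each, and in Combi 6.3% lower and 9.5% higher, beside 6.58% and 13.6%, so these counts were near or under the share of all genes. In TQ 3.2% and in SARB 9.5% were called higher, beside 3.42% and 8.63%. After TMM, TQ had 6 called in each direction and SARB had 8 higher and 10 lower. With cartridge as a block TQ had 1 higher and 2 lower, and SARB had 5 and 6.

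Among 7 receptors and co-receptors, 3 were called lower in SARB, where 20% of all genes were, and 2 in 5-FU, where 10.1% were. RNF43 is a ligase that removes Frizzled receptors from the membrane and is itself a WNT target. It averaged 111.5 ± 43.7 scaled counts in control and 40.4 ± 8.17 in SARB (SD, n = 3). Its log2 fold change in SARB was -1.50 (SE 0.28, edgeR adjusted p = 0.000204). RNF43 was also called lower in 5-FU (-0.84, edgeR adjusted p = 0.0257), a call lost after TMM (-0.62) and with cartridge as a block (-0.35). FZD3, a Frizzled receptor, was lower in 5-FU (-0.82) and SARB (-0.69), and FZD7, another, was lower in SARB (-0.66), both short of the limit after TMM in SARB. Of 8 secreted antagonists, 3 were called lower in TQ, where 21.6% of all genes were, and the same number in SARB, where 20% were. These were DKK2, SFRP4 and DKK4. DKK2 and SFRP4 were below background in at least 1 sample each of control, TQ and SARB. DKK4, a Dickkopf protein that binds LRP co-receptors, was at -2.29 in TQ and -1.92 in SARB. It averaged 47.2 ± 18.1 scaled counts in control, 11.0 ± 5.83 in TQ and 13.6 ± 9.25 in SARB (SD, n = 3). Both treated means lay within the scaled background thresholds of their group, 5.90 to 15.25 in TQ and 5.43 to 32.9 in SARB. With cartridge as a block neither DKK4 call held, at -1.52 in TQ and -1.15 in SARB. DKK1, the most studied member of that family, was called higher in Combi, from 1152 ± 128 to 2282 ± 244 scaled counts (SD, n = 3; log2 fold change 0.99, adjusted p = 1.08e-05).

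Of 11 genes of β-Catenin turnover, 4 were called lower in TQ and 3 in 5-FU, where 21.6% and 10.1% of all genes were. GSK3B, the kinase that marks β-Catenin for destruction, was lower in TQ (-1.17), 5-FU (-0.79) and SARB (-0.81). After TMM the 5-FU (-0.57) and SARB (-0.44) calls were lost, and with cartridge as a block all 3 were, at -0.43, -0.05 and -0.08. AXIN2, a scaffold of the destruction complex and a WNT target, was lower in 5-FU (-0.89), Combi (-0.68) and SARB (-1.19). It had 103.0 ± 19.5 scaled counts in control and 45.5 ± 7.01 in SARB (SD, n = 3). The Combi call was lost after TMM (-0.57). With cartridge as a block the 5-FU call was lost (-0.83) and the Combi call held (-1.17), where Combi replicate 1 alone stands against control replicates 2 and 3. AMER1, which brings Axin to the membrane, was higher in SARB (0.70). Of 5 nuclear factors, 3 were called lower in TQ beside 21.6% of all genes, namely SOX17, a SOX factor that binds β-Catenin (-1.93), CREBBP, a histone acetyltransferase (-1.54), and TCF7L1, a TCF factor (-1.03), and after TMM only SOX17 remained called. With cartridge as a block SOX17 (-1.03, edgeR adjusted p = 0.528), CREBBP and TCF7L1 were not called in TQ. SOX17 was also called lower in SARB (-1.79), where 20% of all genes were. That call held after TMM (-1.52) and was lost with cartridge as a block (-0.88). SOX17 averaged 64.9 ± 27.2 scaled counts in control, 19.1 ± 11.7 in TQ and 20.7 ± 19.9 in SARB (SD, n = 3). CREBBP averaged 67.9 ± 17.0 in control and 25.1 ± 12.2 in TQ. The scaled background threshold was 21.6 to 41.9 in control, 5.90 to 15.25 in TQ and 5.43 to 32.9 in SARB. Its part in these low values was not tested.

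Of 17 target genes, 4 were called higher and 6 lower in SARB, where 8.63% and 20% of all genes were, and 2 were called higher in TQ, where 3.42% were. In 5-FU 4 were called higher and 4 lower, where 10.1% of all genes were each. In Combi 4 were called higher and 3 lower, where 13.6% and 6.58% were. Those lower in SARB included RNF43 and AXIN2, given above, and FGF9. FGF9 was below background in at least 1 sample each of control and SARB. JUN and FOSL1, subunits of AP-1, were both higher in 5-FU, at 1.19 and 1.17, and in Combi, at 1.75 and 1.29. JUN was also higher in SARB at 1.30, and FOSL1 was higher in TQ at 0.64. CCND1, which encodes cyclin D1, was higher in TQ (0.77), a call lost with cartridge as a block (0.35). Of 19 genes of the calcium and polarity branch, 5 were called lower in TQ and 6 in SARB, where 21.6% and 20% of all genes were. PPP3CA was lower in TQ (-1.14, edgeR adjusted p = 4.82e-06). PPP3CB, its sister subunit of calcineurin, was lower in SARB (-1.02), Combi (-0.70) and 5-FU (-0.67). After TMM the 5-FU call was lost (-0.48), and with cartridge as a block the 5-FU (-0.70) and Combi (-0.55) calls were. RAC2, a small GTPase, was higher in 5-FU (1.28), Combi (1.06) and SARB (1.10). With cartridge as a block AXIN2, JUN, PPP3CB and RAC2 stayed called in SARB, and RNF43 (adjusted p = 0.0864), AMER1, FZD3 and FZD7 did not.

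**Figure D4:**
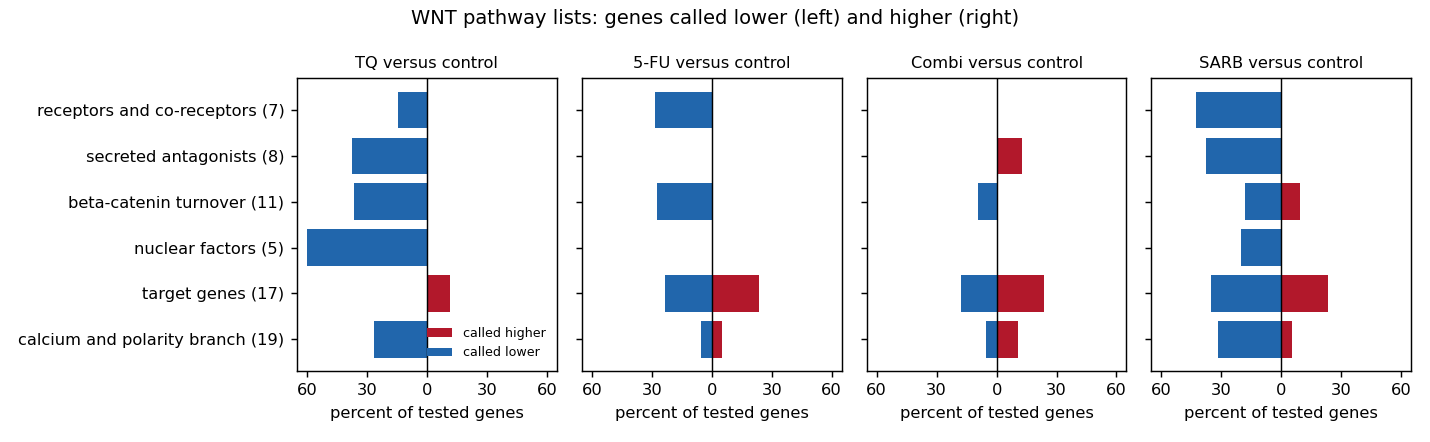
Percent of the tested genes of each WNT pathway list (number tested in brackets) called lower (blue, to the left) and higher (red, to the right) against control, in 4 panels by treatment. In SARB 3 of 7 receptors were called lower, and the target genes held calls in both directions in 5-FU, Combi and SARB.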

How the data were processed

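The authors extracted total RNA, hybridized 50 ng per sample to the nCounter panel and deposited the raw counts and their normalized values, beside their own fold changes and p-values, which were not used. The submitters' processing notes name nSolver Analysis Software 3.0. The deposited raw counts were the basis of all main results. The deposited normalized values (a signal that is never negative) equaled, for 100% of values within 1%, a raw count from which the negative probes' geometric mean was subtracted, with remainders under 1 raised to 1, then multiplied by 1 factor per sample, with products under 1 raised to 1 too. They were used in 1 alternative, tested with limma on log2(value + 1).

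For scaled counts, each raw count was divided by the geometric mean of the sample's 40 housekeeping genes, relative to the mean of this over the 15 samples. The raw counts of all 730 endogenous genes and 5 groups, with library sizes set by that factor, entered 1 quasi-likelihood fit in edgeR 4.0.16 (R 4.3.3), without a block. Calls needed an adjusted p (Benjamini-Hochberg, over all 730 genes) no higher than 0.05 together with a change of 1.5-fold or more. The 7 comparisons were each treatment against control, SARB against Combi, and SARB and Combi against TQ. Alternatives were TMM, DESeq2 1.42.0, limma 3.58.1, 26 housekeeping genes of at least 100 counts, genes above background in at least 3 samples (599), a background floor, only the 2 groups compared, cartridge or replicate number as a block, and each replicate left out.

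All 10 ligands are named, with a fold change under the rule given in the text. Of each pathway list, up to 3 called genes with the largest change per comparison may be named, and for ligands above background in all samples the 5 most alike genes. The ligands and lists were chosen with earlier results of these data known. A list of PORCN and WLS had no gene on the panel.

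Total counts limit the precision of low ligands, as given in the text. The groups have 3 samples, and p-values rest on the spread between samples of 1 cell line, in the main fit estimated over all 5 groups.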

Additional observations from a re-analysis of the deposited data

How the results depend on the processing

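Housekeeping scaling, background and cartridge set the limits of these results, since most ligands had counts close to the negative probes and no cartridge held all groups. WNT16 in TQ, WNT7B in 5-FU and SARB, and both against TQ in SARB kept their direction and call in all 15 alternatives. The cause of the changes listed here was not tested. Within a cartridge fewer samples can be compared with control. How far this accounts for the calls lost and the estimates moved with the cartridge block was not tested either.

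The number of ligands called in TQ was 2 with TMM, with DESeq2 and with limma on the normalized values, 1 with the cartridge block, and 1 (without TQ replicate 2) to 5 when 1 replicate was left out. In 5-FU it was 1 with the cartridge block and 1 (without control replicate 3) to 3 with 1 replicate left out. In Combi it was 0 with the cartridge block, where 2 were higher and 1 lower at an unadjusted p under 0.05, and 1 (without control replicate 2) to 3 with 1 replicate left out. In SARB it was 1 with the cartridge block and 2 to 5 (without control replicate 1) with 1 replicate left out. For SARB against Combi it was 2 with housekeeping genes of at least 100 counts, 0 with the cartridge block and 0 to 4 with 1 replicate left out. For Combi against TQ it was 3 with DESeq2, 0 with the cartridge block and 3 (without TQ replicate 2) to 8 with 1 replicate left out. With the mean of the negative probes as the threshold, 8 ligands were above background in all SARB samples and 7 in all 15 samples.

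Values that changed sign were mostly near 0. With TMM these were, in TQ, WNT3 (0.27), WNT7B (0.48) and WNT10B (0.25), in 5-FU, WNT2B (0.11) and WNT10B (0.14), WNT2B in Combi (0.05), and WNT10B in Combi against TQ (-0.07). With DESeq2 they were, in TQ, WNT3 (0.28), WNT7B (0.52) and WNT10B (0.29), in 5-FU, WNT2B (0.12) and WNT10B (0.15), and WNT10B in Combi against TQ (-0.18). With limma on the normalized values they were WNT7B in TQ (0.77), WNT2B (0.09) and WNT10B (0.02) in 5-FU, and WNT2B in Combi (0.12). With the cartridge block they were WNT7B in TQ (0.48), WNT2B in 5-FU (0.52), WNT6 (-0.18) and WNT10B (-0.05) in Combi, WNT3 in SARB (-0.18), and WNT2B (0.07) and WNT16 (0.02) in SARB against Combi. With housekeeping genes of at least 100 counts WNT2B in Combi was 0.08, with only the 2 groups compared WNT7B in TQ was 0.04, and with the background floor WNT11 in 5-FU was -0.13.

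With 1 replicate left out, the sign changed within these ranges: WNT7B in TQ from -0.19 to 0.41. In 5-FU the ranges were -0.32 to 0.07 for WNT2B, -0.04 to 0.25 for WNT10A and -0.17 to 0.10 for WNT10B. In Combi they were -0.27 to 0.11 for WNT2B, -0.10 to 0.58 for WNT6 and -0.10 to 0.23 for WNT10B. For WNT3 in SARB the range was -0.16 to 0.30. For SARB against Combi, WNT7B ranged from -0.01 to 0.25. For SARB against TQ, WNT2B ranged from -0.06 to 0.88 and WNT6 from -0.32 to 0.86.

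Samples with the same replicate number deviated together no more than samples with different numbers. The correlation of deviations from the group means over 30 pairs of the same number had a median of 0.00, with 6 pairs over 0.1. Over 60 pairs of different numbers the median was 0.01, with 24 pairs over 0.1. The numbers were therefore not taken to pair samples, though this check cannot exclude a pairing. With a replicate block, 0 ligands were called between SARB and Combi, where WNT3 was -0.68 (adjusted p = 0.0513).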

Other observations

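The other 3 WNT genes of the panel, WNT2, WNT5B and WNT7A, stood close to background as well. WNT7A had 13, 19 and 17 raw counts in control, 5, 8 and 8 in TQ, and 41, 83 and 76 in Combi, and it was above background in all 3 samples of 5-FU and of Combi. WNT7A reached 45.3 ± 1.44 scaled counts in Combi and 26.6 ± 3.56 in control (SD, n = 3), a log2 fold change of 0.76 that did not pass the test (edgeR adjusted p = 0.131). WNT2 was above background in 4 of 15 samples and WNT5B in 2.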
